A study of Rana pirica with 9 samples.

Results

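The enzymes that make and break down gamma-aminobutyric acid (GABA), the main inhibitory transmitter of the vertebrate brain, were followed in brains of Rana pirica tadpoles kept with or without salamander larvae. The members were the genes gad1.1, gad1.2, gad2 and abat, taken wherever a probe set carried 1 of these symbols alone in the platform annotation. This gave 3 of the 4 genes, out of 6485 genes named in all, each with a single probe set among the 15491 tested. No probe set was matched to gad2, which is not analysed here. The salamander group comprised 3 samples of tadpoles that had spent 8 days with larvae of salamanders, predators of tadpoles, and the control group comprised 6 samples of tadpoles kept without predators for the same 8 days. All tadpoles were taken before hind limbs had grown, with 10 brains in each pool. Samples of a group are labelled biological replicates, with no word on whether they came from separate tanks or clutches, so that p-values measure only the spread between these pools. RNA was hybridized to Affymetrix Xenopus arrays in 1 colour, that is, RNA of a brown frog to probes designed on a clawed frog.

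GABA is made from glutamate in 1 step by glutamate decarboxylase, which needs pyridoxal phosphate, the active form of vitamin B6. In vertebrates the gad1 product is found through the whole GABAergic neuron and supplies its basal GABA, while the gad2 product is concentrated at nerve terminals. GABA that has been taken back up by neurons and glia is broken down in mitochondria by GABA transaminase, the product of abat, which also uses pyridoxal phosphate and returns the amino group to glutamate. The annotation lists gad1.1 and gad1.2 as separate genes and assigns each of the 3 probe sets to an L copy, the homeolog on the longer chromosome of a pair in the tetraploid Xenopus laevis. No sequences of the probes or proteins are shown.

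Values are log2 signals minus the median of the 6 control arrays in the same probe set, as the authors deposited them. A value of 0 is thus the control median and a value of 1 a signal 1 log2 unit above it. The values carry no absolute level, so the 3 enzymes cannot be ranked by abundance, and whether GABAergic neurons were well represented cannot be read from them. In whole-brain RNA, fewer cells of a type and less RNA per cell cannot be told apart.

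The abat signal stood above the control median on 3 of 3 salamander arrays, at a mean 2.71-fold above the control mean, but it did not pass the test, and 1 control array was higher than all 3. The gad1.1 signal was scattered widely in both groups. The gad1.2 signal was within 1 log2 unit of the control median on all arrays but 1 control. Of the 3 probe sets, 0 were called at an adjusted p under 0.05, as were 0 of all 15491, or 0%.

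The abat probe set read 1.17, 2.24 and 2.25 on salamander arrays 1 to 3, against 2.87, -0.02, -0.04, 0.02, -0.36 and 0.24 on control arrays 1 to 6. All 3 salamander arrays lay above 5 of the 6 controls, and control array 1 lay above all of them. The mean was 1.89 ± 0.62 (SD, n = 3) in the salamander group and 0.45 ± 1.199 (SD, n = 6) in the control group. The difference was 1.44 (SE 0.69, 95% confidence interval -0.08 to 2.95), with an adjusted p of 0.950 in limma and an unadjusted p of 0.0608. An exact two-sided permutation test gave p = 0.0952, where the smallest p that 3 arrays against 6 allow is 0.0238. By its unadjusted p, abat ranked 989 of 15491 probe sets, so 6.38% of all probe sets had a smaller one. The interval ran from a signal 1.05-fold lower to one 7.74-fold higher in the salamander group.

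Control array 1 set the control mean of abat. Without it the other 5 controls averaged -0.03 ± 0.21 (SD, n = 5), and the groups did not overlap, the lowest salamander array being at 1.17 and the highest remaining control at 0.24. This array was singled out because it was the highest control for abat. When each probe set was likewise read without its own highest control, the salamander arrays lay above all other controls in 4.64% of probe sets, against 1.09% with all 9 arrays. The difference without control array 1 was 1.92 (SE 0.45), a value that the choice of array favours. Its adjusted p in limma was 0.569, and 0 probe sets, or 0%, were called in that fit, while 841, or 5.43%, had an unadjusted p under 0.05. Leaving out any of the other 8 arrays kept the difference between 1.26 and 1.80. The difference of group medians was 2.24. As the control median is 0 by construction, this is only the reading of the middle salamander array, number 2.

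**Figure D1:**
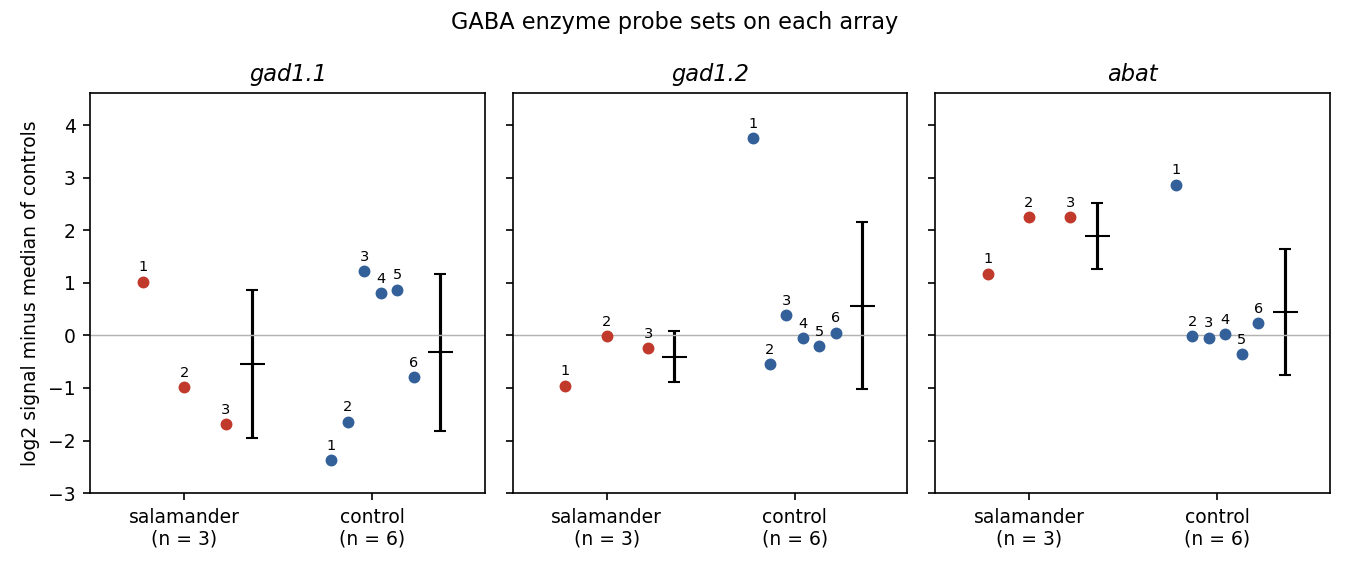
The 3 enzyme probe sets on each array, as log2 signal minus the median of the controls, with salamander arrays in red, control arrays in blue, the array number above each point and the mean ± SD as a black bar. Control array 1 is the highest control for gad1.2, at 3.75, and for abat, at 2.87, and the lowest for gad1.1, at -2.37.

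The gad1.1 probe set read 1.02, -0.99 and -1.69 on salamander arrays 1 to 3, against -2.37, -1.64, 1.22, 0.80, 0.87 and -0.80 on control arrays 1 to 6. Both groups held arrays well above and well below the control median, and all 3 salamander arrays lay inside the control range. The mean was -0.55 ± 1.41 (SD, n = 3) in the salamander group and -0.32 ± 1.497 (SD, n = 6) in the control group. The difference was -0.23 (SE 0.89, interval -2.17 to 1.71; adjusted p = 0.994 in limma), and the exact permutation test gave p = 0.857. The difference of group medians was -0.99, which is the reading of salamander array 2. The arrays therefore left room for a signal up to 4.51-fold lower or 3.28-fold higher in the salamander group. The sign itself turned when salamander array 3, control array 3 or control array 5 was left out, at 0.34, 0.08 and 0.0071, and the lowest value was -1.02 without salamander array 1.

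The spread of gad1.1 between replicate arrays was wide for this series. Its SD within groups was 1.47, and 92.0% of probe sets varied less; the median over all probe sets was 0.96. The SD was 1.37 for gad1.2, with 86.9% of probe sets below it, and 1.07 for abat, with 61.1% below it. For gad1.2 and abat most of this spread came from control array 1, whereas for gad1.1 it was shared over the arrays of both groups.

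The gad1.2 probe set read -0.95, -0.01 and -0.24 on salamander arrays 1 to 3, against 3.75, -0.54, 0.38, -0.05, -0.21 and 0.05 on control arrays 1 to 6. Control array 1 was 13.4-fold above the control median, while the next highest control, array 3, was 1.30-fold above it. All 3 salamander arrays were below the control median, 1 of them below every control. The mean was -0.40 ± 0.49 (SD, n = 3) in the salamander group and 0.56 ± 1.59 (SD, n = 6) in the control group. The difference was -0.96 (SE 0.84, interval -2.80 to 0.87; adjusted p = 0.987 in limma), with p = 0.214 in the exact permutation test. Without control array 1 the other 5 controls averaged -0.07 ± 0.34 (SD, n = 5), and the difference shrank to -0.33 (SE 0.45, interval -1.32 to 0.67; adjusted p = 0.994). The difference of medians was -0.24, which is the reading of salamander array 3. With any array other than control array 1 left out, the difference of means lay between -1.19 and -0.69.

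**Figure D2:**
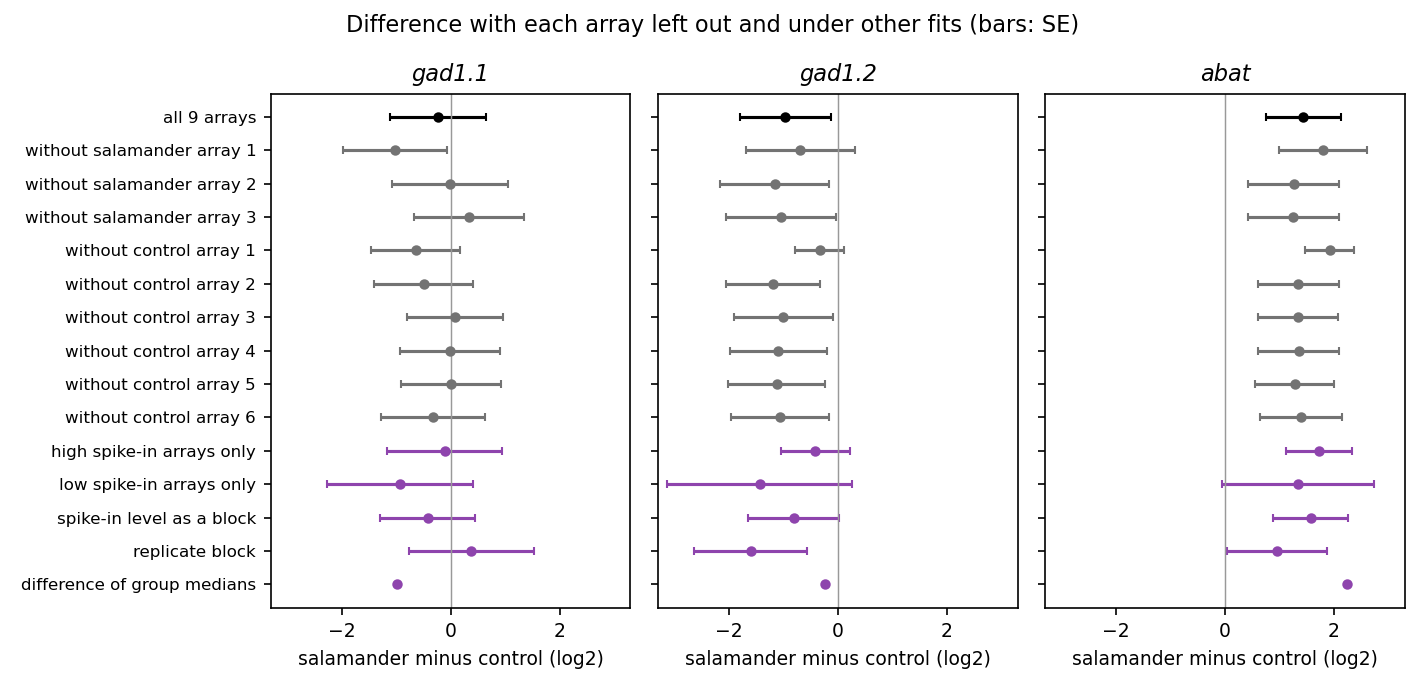
Difference in log2 signal, salamander minus control, for each enzyme with all 9 arrays, with each array left out in turn, on the arrays with high or low spike-in signals, with that level or the replicate number in the fit, and as a difference of medians; bars are SE, and medians have none. The abat difference is above 0 in all 15 settings drawn and highest for the medians, at 2.24. The gad1.2 difference is below 0 in all of them, and the gad1.1 difference lies on both sides of 0. The control median is 0 by construction, so the difference of medians is the reading of the middle salamander array.

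Over all probe sets, control array 1 stood apart above the other controls, with a gap over Dixon's critical value, in 78 probe sets, or 0.504% of all. The same share was 0.368% to 0.542% for the other 5 controls. It stood apart below them in 193, or 1.25%, the highest such share of the 6 controls, against 0.871% to 1.21% for the others. Among the 70 probe sets of the GABA-related lists described below, it was the highest control in 13 and the lowest in 13. Over all probe sets it was the highest in 17.8% and the lowest in 16.6%. By that gap it stood apart above the others in 0 of the 70 and below them in 0. With shares of 0.504% and 1.25% over all probe sets, these counts of 0 say little. The gad1.1 reading on this array was the lowest of all 9 without such a gap.

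Poly-A spike-in RNAs, added to a sample before labelling, put the arrays at 2 levels, with arrays of both groups at each: the mean of 27 such probe sets was 1.04 to 1.601 on salamander arrays 1 and 2 and control arrays 2, 3 and 4, and -2.04 to -1.54 on salamander array 3 and control arrays 1, 5 and 6. On the high arrays abat read 1.17 and 2.24 in the salamander group, against -0.04 to 0.02 in the control group. These did not overlap, which held with salamander on top for 9.89% of all probe sets. The difference there was 1.72 (SE 0.60; adjusted p = 0.838 in limma). On the low arrays it was 1.34 (SE 1.40), from 1 salamander array, at 2.25, and controls at 2.87, -0.36 and 0.24. With the spike-in level in the fit over all 9 arrays it was 1.57 (SE 0.68, interval 0.06 to 3.09), with an adjusted p of 0.897 and an unadjusted p of 0.0433; 5.56% of all probe sets had an unadjusted p under 0.05 in that fit. For gad1.1 the difference was -0.11 among high arrays and -0.92 among low ones. For gad1.2 it was -0.41 among high arrays and -1.43 among low ones, which include control array 1.

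The rounding of the deposited numbers gave a partial view of signal strength. A value with a step finer than a log2 signal of 8 or more would carry is marked as weak, meaning a signal below 256 on that array or in the control median. Weak signals can go unmarked. For abat 0 of 3 salamander arrays and 2 of 6 control arrays, numbers 5 and 6, were marked. Control array 6, at 0.24, lay above the control median of abat, so this median was below 256. Control arrays 2 and 3, below that median, were thus weak too, although unmarked. The abat difference is therefore read from a weak control signal. For gad1.1 the marks were on 1 salamander array, number 2, and 0 controls. Salamander array 3 and control arrays 1 and 2 had lower gad1.1 values than the marked array. Their signals were thus below 256 too, although unmarked. For gad1.2 the marks were on 2 salamander arrays, numbers 1 and 2, and 1 control, number 3. That control, at 0.38, lay above the control median of gad1.2, so this median was below 256. Control array 1 was marked for none of the 3 enzymes. The lack of a mark does not show a strong signal, since its gad1.1 value was below that of the marked array.

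Synthesis and breakdown enzymes were then compared array by array, in 3 pairs. Over 9 arrays abat and gad1.1 correlated negatively, with Pearson's r = -0.65 (exact permutation p = 0.0662, adjusted over the pairs 0.119) and Spearman's rho = -0.68 (exact permutation p = 0.0503, adjusted 0.151). Without the 2 arrays farthest from the gad1.1 median, salamander 1 and control 3, r was -0.71 over 7 arrays. Within the 6 controls r was -0.72 (exact permutation p = 0.0403, not adjusted over the pairs), with rho = -0.77 (exact permutation p = 0.103). Among these controls abat read 2.87 on array 1 and -0.36 to 0.24 on the others. Without control array 1, r was -0.48 over the other 8 arrays of both groups. The relation did not pass after adjustment.

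The other pairs rested on control array 1. For gad1.2 and abat, r was 0.53 over 9 arrays (exact permutation p = 0.0970, adjusted 0.119) and rho 0.15 (exact permutation p = 0.708, adjusted 0.776). Without control array 1 and salamander array 1, the farthest from the gad1.2 median, r was -0.05, and without control array 1 alone it was -0.17. For gad1.1 and gad1.2, r was -0.50 (exact permutation p = 0.119, adjusted 0.119) and rho -0.12 (exact permutation p = 0.776, adjusted 0.776). Without the 2 arrays farthest from the gad1.1 median r was -0.50, and without control array 1 it was 0.08. The probe sets of gad1.1 and gad1.2 thus showed no common course over the arrays. The sets of 5 and 4 arrays with high and low spike-ins are too small for a correlation within each.

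**Figure D3:**
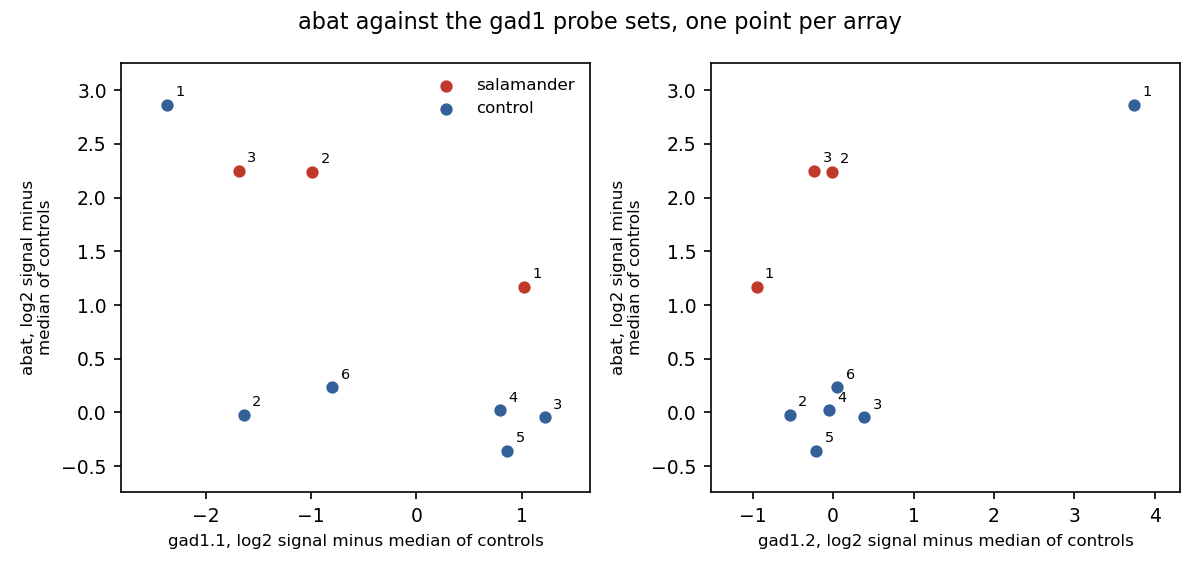
The abat signal (vertical axis) against gad1.1 (left) and gad1.2 (right), all as log2 signal minus the median of the controls, 1 numbered point per array with salamander arrays in red and control arrays in blue. Control array 1 is alone at the upper right against gad1.2, at 3.75 and 2.87. Against gad1.1 it is at the upper left, at -2.37 and 2.87. Salamander arrays 3, at -1.69 and 2.25, and 2, at -0.99 and 2.24, are also at the upper left there.

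The named probe sets most like each enzyme over the 9 arrays are given as a description. Among 9303 probe sets with another symbol, 3 correlated with abat at r of 0.9 or more. The closest were cdk16, a cyclin-dependent kinase (r = 0.95, rho = 0.95), and upf1, a helicase of nonsense-mediated decay (r = 0.94, rho = 0.88). Without control array 1 and salamander array 3, the 2 arrays farthest from the abat median, r was 0.94 for cdk16 and 0.86 for upf1. Their own differences between groups were 1.19 (SE 0.58) and 0.84 (SE 0.61). For gad1.1, 6 probe sets reached that r, led by has1, a hyaluronan synthase (r = 0.95, rho = 0.90), and smurf2, a ubiquitin ligase (r = 0.93, rho = 0.83). Without salamander array 1 and control array 3, r was 0.97 for has1 and 0.90 for smurf2. For gad1.2, 3 reached it, led by znf622 (r = 0.93, rho = 0.27) and mfsd14bl (r = 0.91, rho = 0.57). Without control array 1 and salamander array 1 these correlations were -0.39 and 0.08. Points of 1 array share its RNA pool, hybridization and scaling, and the highest of 9303 correlations over 9 points is high by selection.

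Around the enzymes, 114 genes of GABA handling and of GABAergic neurons were listed, of which 46 were measured by 70 probe sets. None was called in either direction, against 0% of all probe sets. The difference was positive in 33 and negative in 37, with a median of -0.08, where over all 15491 probe sets 50.1% were positive and the median was 0.0016. An unadjusted p under 0.05 was reached by 1 of 70, or 1.43%, against 5.15% of all. In 0 of 70 the groups did not overlap, against 2.33% of all.

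Of the GABA carriers, 2 of 6 genes were measured. The vesicular transporter slc32a1, which loads GABA into synaptic vesicles, read -0.98, 0.39 and -0.96 on salamander arrays 1 to 3, against -0.72 to 0.42 over the 6 controls with a median of 0. Its difference was -0.46 (SE 0.48), and between -0.92 and -0.23 with 1 array left out. On the high spike-in arrays it was -0.04, and on the low ones, with 1 salamander array, -1.10. With the spike-in level in the fit it was -0.45. The plasma membrane carrier slc6a13 was at 0.26 (SE 0.67), and between 0.04 and 0.61 with 1 array left out. The groups overlapped in both.

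Receptor genes were sparsely covered. Of 19 listed GABA-A subunits 0 had a probe set of their own name, and they are not analysed here. The GABA-B subunit gabbr1, part of the G-protein-coupled GABA receptor, read -0.03, 1.06 and 0.60 on salamander arrays 1 to 3, against -0.55 to 0.40 in the controls, a difference of 0.53 (SE 0.43), and between 0.27 and 0.82 with 1 array left out. Of 4 probe sets for receptor scaffold and traffic, 3 were positive, with a median of 0.37. The scaffold gephyrin, gphn, which clusters inhibitory receptors, stood at 1.03 (SE 0.55, adjusted p = 0.973 in limma), with 7 of its 9 values marked as weak. It moved between 0.48 without salamander array 1 and 1.499 without salamander array 3. The receptor-binding protein gene gabarap stood at 0.63 (SE 0.63), of which control array 5, at -2.61, made up the most, since without it the difference was 0.20.

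Of 9 probe sets for the steps after abat and for other routes to GABA, 2 were positive and 7 negative, with a median of -0.16. The aldehyde dehydrogenase aldh1a1, which in mouse midbrain neurons makes GABA from putrescine-derived aldehyde, had 1 probe set at -1.15 (SE 0.57, interval -2.40 to 0.10; adjusted p = 0.950 in limma) and another at -0.08 (SE 0.63). The first read -0.40, -1.80 and -1.30 on the salamander arrays, against -1.14 to 1.14 on the controls. Of the 9 values of that probe set, 6 were marked as weak. The related enzyme aldh9a1 stood at -0.46 (SE 0.41). Succinic semialdehyde dehydrogenase, aldh5a1, which takes the product of abat further, was not matched and is not analysed here. Of 8 other decarboxylase and regulator genes listed, 4 were measured, and ddc, hdc, csad and gadl1 had no probe set of their own name. Of the 7 probe sets of odc1, azin1, azin2 and amd1, 3 were positive. The enzyme odc1, which makes putrescine, had 1 at 0.44 (SE 0.60), and the antizyme inhibitor azin1 was at 0.56 (SE 0.66). The odc1 value rested on control array 3, at -2.30, without which the difference was 0.05. It was 1.02 on the high spike-in arrays, which include control array 3, and -0.26 on the low ones. The other 2 probe sets of odc1 were at -0.16 and -0.50. The azin1 value was 0.14 without control array 5.

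The glutamate and cofactor supply had 7 positive and 7 negative probe sets, with a median of -0.04. The mitochondrial aspartate aminotransferase got2, which makes and uses glutamate, read 2.48, 0.18 and 2.77 on salamander arrays 1 to 3, against -0.53 to 1.96 on the controls. Its difference was 1.44 (SE 0.72, interval -0.13 to 3.01; adjusted p = 0.950 in limma), and between 0.96 and 2.26 with 1 array left out. For sdha, a subunit of succinate dehydrogenase, which receives the carbon of GABA as succinate, 1 probe set stood at 1.14 (SE 0.68) and the other at -0.18 (SE 1.096). The first was 0.35 without salamander array 1 and 1.62 without salamander array 2, and 5 of its 9 values were marked as weak. The glutamine synthetase glul, a glial enzyme, was at 0.39 (SE 0.49) and -0.31 (SE 0.41) on its 2 probe sets, and glutamate dehydrogenase glud1 at 0.11 (SE 0.63).

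Transcription factors of GABAergic neurons had 11 positive and 14 negative probe sets, with a median of -0.23. These 25 probe sets stood for 12 genes, so the counts are not counts of genes. The gene pax2 had the most of them, with differences from -0.72 to 0.81. The forebrain factor dlx2 had probe sets at -1.18 (SE 0.72) and -0.13 (SE 0.41), the first with salamander arrays at 0.02, -1.24 and -3.31, against -1.71 to 0.40 on the controls. That difference lay between -1.94 and -0.28 with 1 array left out. On the high spike-in arrays it was -0.04, and on the low ones, with 1 salamander array, -3.21. With the spike-in level in the fit it was -1.26. The related dlx5 was at -0.81 (SE 0.55), and between -1.29 and -0.52 with 1 array left out. It was at -1.76 on the high spike-in arrays and at 0.63 on the low ones. Interneuron peptides, calcium buffers and other co-markers had 6 positive and 5 negative probe sets, with a median of 0.01. The secreted protein reelin, reln, made by several interneuron classes, read 2.15, 0.83 and 0.87 on the salamander arrays, against -2.65 to 0.91 on the controls. This gave a difference of 1.73 (SE 0.77, interval 0.04 to 3.42; adjusted p = 0.945 in limma), while its second probe set was at 0.23 (SE 0.73). On the high spike-in arrays the first was at 0.88, and on the low ones, with 1 salamander array, at 2.37. The nitric oxide synthase nos1 was at -0.57 (SE 0.54), and between -0.76 and -0.29 with 1 array left out, the smallest without control array 3. Several of these genes thus had probe sets that did not agree in size or sign. Of the 15 related probe sets named by the rule, leaving out a single array changed the difference by a factor of more than 1.5 in 12 and its sign in 0. Their choice by small p makes a change of sign unlikely.

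**Figure D4:**
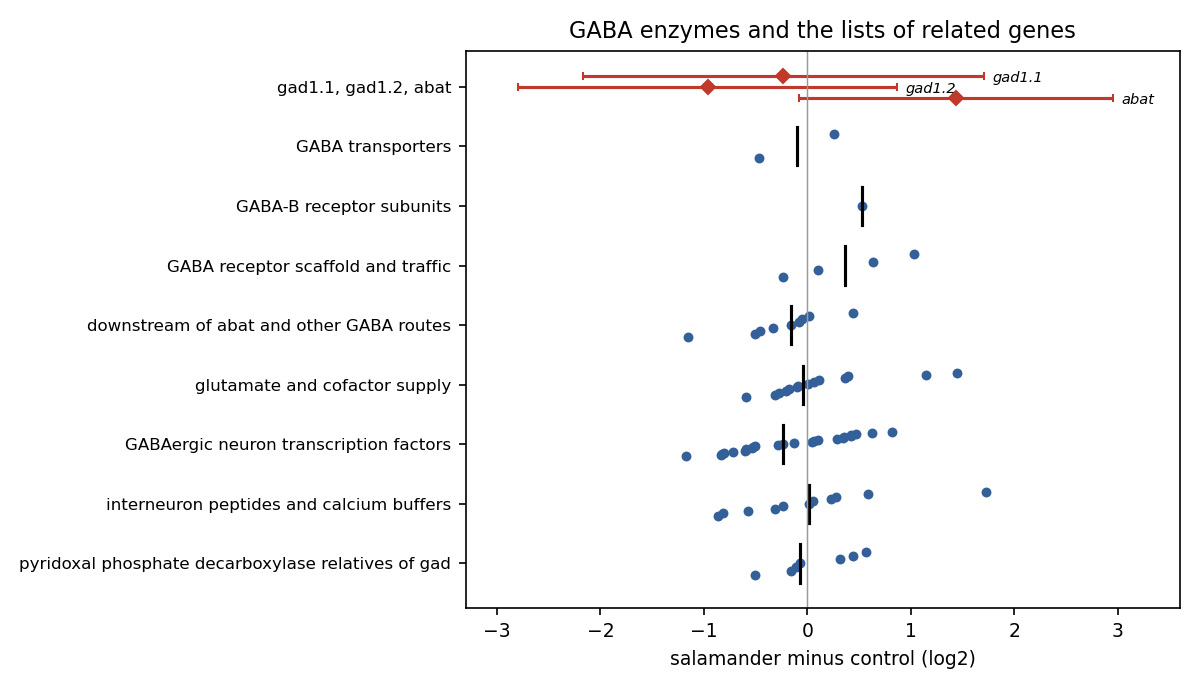
Differences in log2 signal, salamander minus control, for the 3 enzymes (red, with 95% confidence intervals) and for each probe set of the lists of related genes (blue points), with the list median as a black line. Of the 70 related probe sets, only the reln probe set at 1.73 and that of got2 have a difference above that of abat. The got2 value, 1.443, is nearly equal to the 1.438 of abat, whose interval includes 0. The list labelled as relatives of gad holds odc1, azin1, azin2 and amd1, which are other decarboxylases and regulators.

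Marker lists of other cells were read on the same arrays, each as the mean of its probe sets. The lists were covered in part, from 3 of 9 genes for skin to 8 of 9 for erythrocytes and for liver. The counts below are of probe sets, not genes. Over all 15491 probe sets 50.1% were positive. Of 16 neuronal probe sets 12 were positive, and the list mean was 0.10 to 0.85 on the salamander arrays, against -0.12 to 0.13 on the controls. For oligodendrocytes 4 of 10 listed genes were measured, by 6 probe sets. Of these 0 were positive, with means of -1.19 to -0.54 on the salamander arrays, against -0.63 to 0.61 on the controls. For astroglia, which take up and break down GABA, 2 of 6 were positive, with means of -0.77 to -0.02 on the salamander arrays, against -0.62 to 0.06 on the controls. Liver plasma protein genes, from a tissue in which abat is abundant in mammals, had 6 positive of 17, with means of -0.71 to 0.13 on the salamander arrays, against -0.27 to 0.26 on the controls. Positive probe sets numbered 2 of 6 for glutamatergic neurons, 4 of 7 for microglia and leukocytes, 5 of 11 for erythrocytes, 11 of 15 for skeletal muscle, 3 of 5 for skin and 7 of 8 for retina and lens. No marker probe set was called. On control array 1, where abat and gad1.2 were high, the neuronal mean was -0.09, the astroglial mean -0.10 and the liver mean 0.15, all inside the range of the other controls. The glutamatergic neuron mean, 0.67, and the erythrocyte mean, 0.30, were the highest of the controls on that array, and the oligodendrocyte mean, -0.63, was the lowest. The part of cell composition in the abat difference was not tested.

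Each value is read as that of a gene through the platform annotation, and this link was not tested. Over 4219 pairs of probe sets that share a symbol, the sign of the group difference was shared in 49.9%. With 50.1% of all probe sets positive, unrelated probe sets would share a sign about as often. The difference in 1 probe set was thus no guide to the sign in another of the same symbol. Whether the annotation or noise of the arrays lies behind this was not tested. Each of the 3 enzymes has a single probe set, so no second reading of abat, gad1.1 or gad1.2 was available.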

How the data were processed

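Total RNA of 9 pools of 10 brains was measured on 1-colour arrays. Per the submitters' processing notes, signals came from MAS5. The values deposited by the authors are log2 signals. Logarithm and centring were read from the values: in every probe set the control median is 0 within 9.54e-07, and base 2 follows from rounding steps. How arrays were scaled beforehand is not stated. Array medians lay between -0.0084 and 0.0069. The number of arrays limits the precision.

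Groups and replicate numbers came from sample titles. After removal of 120 Affymetrix control probe sets, limma 3.58.1 (R 4.3.3; lmFit and eBayes, no trend, no filter) was fitted to 15491 probe sets on all 9 arrays, salamander minus control, with Benjamini-Hochberg adjustment over all of them and a threshold of 0.05. The fit was tested on simulated data with independent normal noise. Such data lack the single control arrays that stood apart here, so that test does not cover them. Exact permutation tests used SciPy in Python 3.11.15, figures matplotlib 3.10.9. Replicate numbers 1 to 3 occur in both groups, but deviations of same-numbered arrays correlated at 0.0059, 0.016 and -0.0049, so that no pairing was used.

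Names came from the platform annotation (9304 probe sets with 1 symbol, 195 with several, 6187 tested probe sets without 1 symbol), in lower case and without homeolog endings. Members and gene lists were chosen with earlier results of these data known. Named from each list were the 2 probe sets with the smallest p and any whose groups did not overlap; other probe sets of the same genes, glul, glud1 and aldh5a1 were added after values were seen. The 2 probe sets with the highest Pearson correlation were named as most like each enzyme. Alternatives covered normalization, moderation, array weights, signal strength, spike-in level, replicate block, gene means, medians and each array left out.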

Additional observations from a re-analysis of the deposited data

Results flagged for a closer look

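In 5 of the probe sets read singly above, 1 control array stood apart from the other 5, with a gap to its neighbour beyond Dixon's 95% critical value. Those read singly were the 3 enzymes, 15 related probe sets named by the rule and others added after values were seen. No share is therefore given for the 5. Such gaps are expected by chance in about 1 in 20 groups, and over all 15491 probe sets 2.85% had a control apart above and 6.35% one apart below. Among the enzymes these were gad1.2, where control array 1 read 3.75 against -0.54 to 0.38 on the rest, and abat, with control array 1 at 2.87 and the others at -0.36 to 0.24. The same array thus stood apart in both. Among the related genes they were gabarap, with control array 5 at -2.61 and the others at -0.37 to 0.24, and 2 probe sets of odc1, one with control array 3 at -2.30 and the others at -0.36 to 0.29, the other with control array 5 at -1.43 and the others at -0.02 to 0.11. Probe sets of pax2, ogdh, got1, gata3 and gabarapl2 in the related lists, not read singly above, also had such gaps.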

How the results depend on the processing

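No setting called a probe set: limma gave 0 calls with all arrays, as did quantile normalization, median centring, no moderation, array weights, gene means, the bright probe sets, either spike-in set, the spike-in or replicate block and each array left out. At an unadjusted p under 0.05 there were 798 probe sets with all arrays, 475 after quantile normalization and 719 without moderation. The deposited values, already centred on control medians, spread more widely on salamander arrays than on controls. Their SD over probe sets was 1.14 to 1.16 against 0.94 to 0.99, a difference that quantile normalization removes. Centring on the controls in itself narrows control arrays and widens salamander arrays. The wider spread therefore cannot be read as a trait of the salamander samples. How much of it comes from centring was not tested. With the replicate block the gad1.1 difference turned to 0.38, gad1.2 was -1.60 and abat 0.95. The controls closest in deviation to salamander arrays 1, 2 and 3 were numbers 3, 2 and 5. Some control is always closest, and for salamander array 2 that correlation was only 0.016. With 1 array left out, gad1.1 ran from -1.02 to 0.34, gad1.2 from -1.19 to -0.33 and abat from 1.26 to 1.92, and positive related probe sets from 26 to 40 of 70. On the low spike-in arrays, with 1 salamander array assumed to vary like the controls, dlx5 turned to 0.63 and odc1 to -0.26. The cause was not tested. Quantile normalization gave -0.15 for gad1.1, -0.90 for gad1.2 and 1.28 for abat. Only gad1.1 was among the 7265 bright probe sets, those with at most 1 weak mark, so gad1.2 and abat have no value in that setting. The single mark of gad1.1 does not show a strong signal, since unmarked arrays with lower gad1.1 values were below 256 too. Signal over background is unknown.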
